A study of Rattus norvegicus with 46 samples.

Results

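The region by surgery interaction at P10 asks whether neonatal hypoxia-ischemia (HI) changed a gene in microglia of the subventricular zone (SVZ) by another amount, or in another direction, than in microglia of the cortex (CX). It was computed per gene as the difference between HI and sham in the SVZ minus the difference between HI and sham in the CX, on the log2 scale. A positive interaction therefore means a larger increase, or a smaller decrease, after HI in the SVZ. All P10 arrays of the series entered, that is 24 of 46 arrays from 12 of 23 animals, with 6 arrays in each of the groups SVZ HI, SVZ sham, CX HI and CX sham. Each animal gave 1 SVZ array and 1 CX array, so the interaction is also the mean of the within-animal differences (SVZ minus CX) in 6 HI animals minus that in 6 sham animals.

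All animals were Sprague-Dawley rats of both sexes with surgery on postnatal day 7 (P7) and tissue collection at P10. HI animals had the right common carotid artery clipped for a limited time and then breathed oxygen-poor air, whereas in sham animals the artery was only exposed. Individual animals were not pooled, and CD11b+ cells were drawn with magnetic beads from papain-dissociated tissue. In HI animals the SVZ came from the injured (ipsilateral) hemisphere and the supplementary motor cortex from the other (contralateral) one, so region and side of injury cannot be told apart. SVZ tissue of sham animals came from both hemispheres, and the sources used here differ on the side of the sham cortex. Only HI brains with mild to moderate injury that left the SVZ itself intact had been kept. RNA was hybridised to a whole-transcriptome rat array, and values are background-corrected, quantile-normalised log2 intensities. Array medians lay between 5.26 and 5.44. RNA integrity numbers were 9.8 to 10 in SVZ HI (given for 5 of 6 arrays), 8.4 to 10 in SVZ sham, 9.8 to 10 in CX HI and 9.8 to 10 in CX sham.

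Microglia are the resident macrophages of the brain. They carry a homeostatic program that includes the receptors Cx3cr1 and P2ry12, and they leave it for a phagocytic, lipid-handling program around injury and, in early postnatal life, in white matter and germinal zones. The SVZ is such a germinal zone, in which neural stem cells produce neuroblasts and oligodendrocyte precursors, and microglia there are known to differ from cortical microglia without any injury. HI in the newborn rat damages mainly cortex and striatum of the clipped side, next to the SVZ.

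Microglial transcripts were abundant in every group. Csf1r averaged 10.9 ± 0.0653 in SVZ HI, 10.8 ± 0.174 in SVZ sham, 11.1 ± 0.0613 in CX HI and 10.9 ± 0.161 in CX sham (log2, SD, n = 6 each). Neuronal, glial and vascular transcripts were also present. Over 24 neuroblast and neuron genes the mean level was 5.43 to 5.92 in SVZ HI, 5.60 to 7.13 in SVZ sham, 5.31 to 5.41 in CX HI and 5.23 to 5.42 in CX sham. The SVZ array of sham animal A-3 stood apart at 7.13, with the next sham SVZ array at 6.25. Dcx, a marker of neuroblasts, averaged 6.62 ± 0.508 in SVZ HI and 7.25 ± 1.15 in SVZ sham, against 4.996 ± 0.145 in CX HI and 4.94 ± 0.191 in CX sham. In RNA from sorted bulk cells, fewer cells of a type and less RNA per cell cannot be told apart.

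At P10 more genes passed the test of HI against sham in SVZ microglia than in CX microglia, when each region was tested with limma over the 4 group means. In the SVZ, 1364 of 25163 genes rose (5.42%) and 301 fell (1.2%) at an adjusted p under 0.05. In the CX, 3 genes rose (0.0119%) and 0 fell (0%), namely Spin1 (CX 0.49), Dgcr2 (CX 0.60) and 1 transcript without a symbol. A count of calls in each region does not show that the regions differ, which is what the interaction tests. Of the 1364 genes that rose in the SVZ, 1236 also had a positive difference in the CX, with a median difference of 0.42 in the SVZ and 0.17 in the CX. Their median interaction was 0.26. The genes were selected on the SVZ side and both regions come from the same animals, so the larger SVZ median, the sign of the interaction and the shared sign in the CX are partly set by the selection and are given as a description. Of the 301 genes that fell in the SVZ, 212 had a negative difference in the CX, with medians of -0.39 in the SVZ and -0.05 in the CX. The count in the CX depended on the model, since 335 genes were called there (243 higher, 92 lower) when the spread was estimated over all 46 arrays, against 2521 in the SVZ. It also depended on single sham animals, with 170 genes without A-6 and 101 without A-3, while the SVZ count lay between 981 (without C-5) and 2564 (without A-4) of the 1665.

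**Figure D1:**
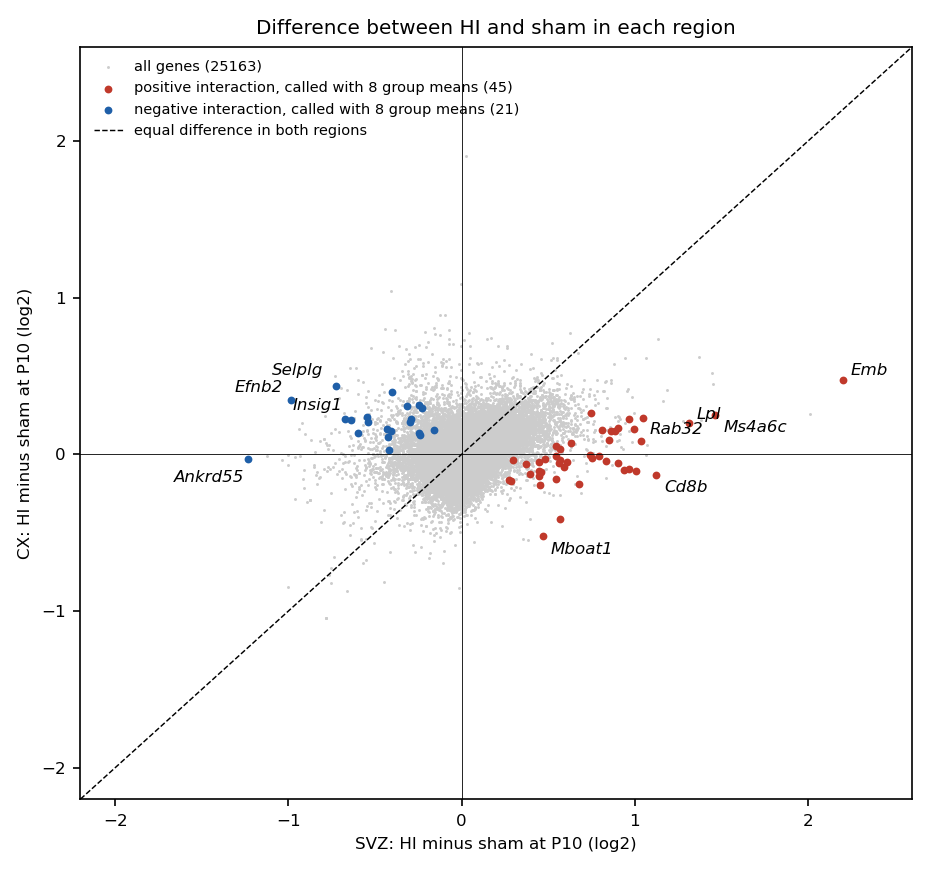
Each point is a gene placed by its HI minus sham difference at P10 in the SVZ (x axis, log2) and in the CX (y axis, log2). The horizontal distance from the dashed diagonal is the interaction. Coloured are the genes whose interaction was called when the spread was estimated over the 46 arrays of all 8 groups, 45 positive (red) and 21 negative (blue). All but 1 of the red and 2 of the blue genes differ more along the x axis than along the y axis. The 2 differences have opposite signs in 29 of the red and 20 of the blue genes. Mboat1 is among them, below 0 in the CX and above 0 in the SVZ. The coloured genes were selected by the interaction, so the opposite signs are partly set by the selection. Their counts are given as a description, without a share over all genes beside them.

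With the animal as a block and the 24 P10 arrays alone, 0 of 25163 genes had an interaction at an adjusted p under 0.05 (limma, Benjamini-Hochberg), 0% in the positive and 0% in the negative direction. The smallest adjusted p was 0.0803, for Rab32. At an unadjusted p under 0.05 there were 1495 positive (5.94%) and 1348 negative (5.36%) genes. The median interaction over all genes was 0.03, with 58.3% of genes above 0. The typical standard error of an interaction was 0.113 in this model. A count of 0 did not hold in models that took the spread from all 46 arrays and left the P10 estimates as they were. The 8 group means without a block gave 45 positive (0.179%) and 21 negative (0.0835%) genes, and the animal block over all 46 arrays gave 72 positive (0.286%) and 36 negative (0.143%). The 8-group model called 5 positive and 1 negative genes without HI animal E-1, 8 and 1 without HI animal C-1, 10 and 2 without sham animal A-2, and 61 and 110 without sham animal A-3. The 2 models shared 55 genes, which is 83.3% of the 66 and 50.9% of the 108. A gene below is said to be called in the 8-group model, or in the 46-array block model, only where it was.

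Of the 45 genes positive in the 8-group model, 43 rose in the SVZ with the 4-group test and 0 were called in the CX. The CX difference pointed the other way in 29 of the 45. Of the 21 negative genes, 16 fell in the SVZ and 20 had differences of opposite sign in the 2 regions. These genes were selected by the interaction, so the SVZ calls and the opposite signs are partly set by the selection. Both are given as a description, without a share of opposite signs over all genes beside them. The interaction exceeded 1.5-fold in 30 of the positive and in 11 of the negative genes. Set against the region difference of sham animals, the sham SVZ mean was above the sham CX mean in 34 of the 45 positive genes, a gap that was called in 19 of the 45 (18 of them of the sign of the interaction). Among all genes the sham SVZ mean was above the sham CX mean in 10132 of 25163. The sham gap was called in 2322 of these 25163 genes (842 of them of the sign of the interaction). The sham SVZ mean was below the sham CX mean in 14 of the 21 negative genes and above it in 7, a share near that of all genes. In these negative genes the sham gap was called in 7 of the 21 (6 of the sign of the interaction). The gap had opposite signs in HI and sham animals in 11 of the 45 and in 7 of the 21, against 7806 of all 25163 genes, a share near the background.

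A reversal in the strict sense, with a called increase in one region and a called decrease in the other, was found for 0 genes in the 4-group test. There only 3 genes were called in the CX and 0 of them fell, so that test had little room to find a reversal. In the 8-group model, 147 genes were called in both regions and 1 of them was a reversal. That 1 gene was Mboat1, which encodes an acyltransferase of membrane lysophospholipids. Its level was 6.565, 7.106 and 7.419 (lowest, median and highest, log2) in SVZ HI and 6.187, 6.668 and 6.995 in SVZ sham, against 5.802, 6.15 and 6.472 in CX HI and 6.267, 6.661 and 6.933 in CX sham. Arrays of the 2 surgeries overlapped in both regions. The difference between HI and sham was 0.47 in the SVZ (adjusted p = 0.0213 in the 8-group model) and -0.52 in the CX (adjusted p = 0.0447). Its interaction was 0.99 ± 0.21 (SE), with adjusted p = 0.159 in the block model of P10 arrays, 0.0140 with 8 groups and 0.0248 with the block over 46 arrays. Mboat1 was picked for these values.

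The 10 named genes of smallest p with a positive interaction were Rab32, Cd8b, Slc16a10, Slc38a6, Fcgrt, Lrrc39, Sgca, Angptl2, Scimp and Rab27a, none of which passed in the block model of P10 arrays (adjusted p 0.0803 to 0.12). All 10 rose in the SVZ, 7 were called in the 8-group model and 8 in the 46-array block model. In 7 of the 10 the within-animal differences of all HI animals lay above those of all sham animals, which held for 0.25% of all genes. These genes were chosen by that measure, so the count is a description.

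Rab32 encodes a small GTPase of traffic to lysosome-related organelles. It measured 7.256, 7.975 and 8.19 (lowest, median, highest) in SVZ HI and 6.455, 6.839 and 7.095 in SVZ sham, against 5.872, 6.135 and 6.351 in CX HI and 5.88, 5.999 and 6.198 in CX sham. HI and sham arrays were separated in the SVZ and overlapped in the CX. Within animals, SVZ exceeded CX by 1.384 to 2.026 in HI animals and by 0.522 to 1.156 in sham animals, an interaction of 0.95 ± 0.13 (SE). No HI animal overlapped a sham animal in this difference, for which the gene had been chosen. The adjusted p was 0.0218 with 8 groups and 0.00529 with the block over 46 arrays. The related GTPase gene Rab27a, which serves secretion, had an interaction of 0.74 ± 0.14 and a CX difference of -0.0048.

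Cd8b encodes the beta chain of a T cell co-receptor. It measured 7.74, 8.16 and 8.38 in SVZ HI and 6.74, 6.85 and 7.57 in SVZ sham, against 4.37, 4.53 and 5.07 in CX HI and 4.41, 4.68 and 5.36 in CX sham. It was thus far above the cortex in the SVZ of sham animals, and higher again after HI. Its CX medians of 4.53 and 4.68 lay below the array medians of 5.26 to 5.44. The interaction was 1.26 ± 0.20, with a CX difference of -0.13 (95% interval -0.47 to 0.20). Of 19 lymphocyte genes measured, Cd8b among them, 15 were positive, 3 positive and 1 negative at an unadjusted p under 0.05, with a median of 0.08, and 2 rose and 1 fell in the SVZ. Besides Cd8b, the positive ones at that level were Cd8a at 0.34 and Cd3d at 0.23, and the negative one was Il7r at -0.93. Cd3e averaged 4.01 ± 0.106 in SVZ HI and 4.05 ± 0.179 in SVZ sham, against 4.10 ± 0.0932 in CX HI and 4.10 ± 0.0714 in CX sham. These Cd3e levels lay below the array medians of 5.26 to 5.44. The part of lymphocytes in the Cd8b result was not tested.

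The transporter genes Slc16a10 and Slc38a6 carry amino acids. For Slc16a10 the order of the regions differed between HI and sham animals. It averaged 5.41 ± 0.261 in SVZ HI and 4.73 ± 0.244 in SVZ sham, against 5.07 ± 0.141 in CX HI and 5.26 ± 0.312 in CX sham. SVZ minus CX was 0.11 to 0.48 in HI animals and -0.86 to 0.03 in sham animals, so the 2 surgeries did not overlap. The interaction of Slc16a10 was 0.87 ± 0.14 at P10 and -0.27 at P20. Slc38a6 had an interaction of 0.88 ± 0.15 and a CX difference of -0.04.

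**Figure D2:**
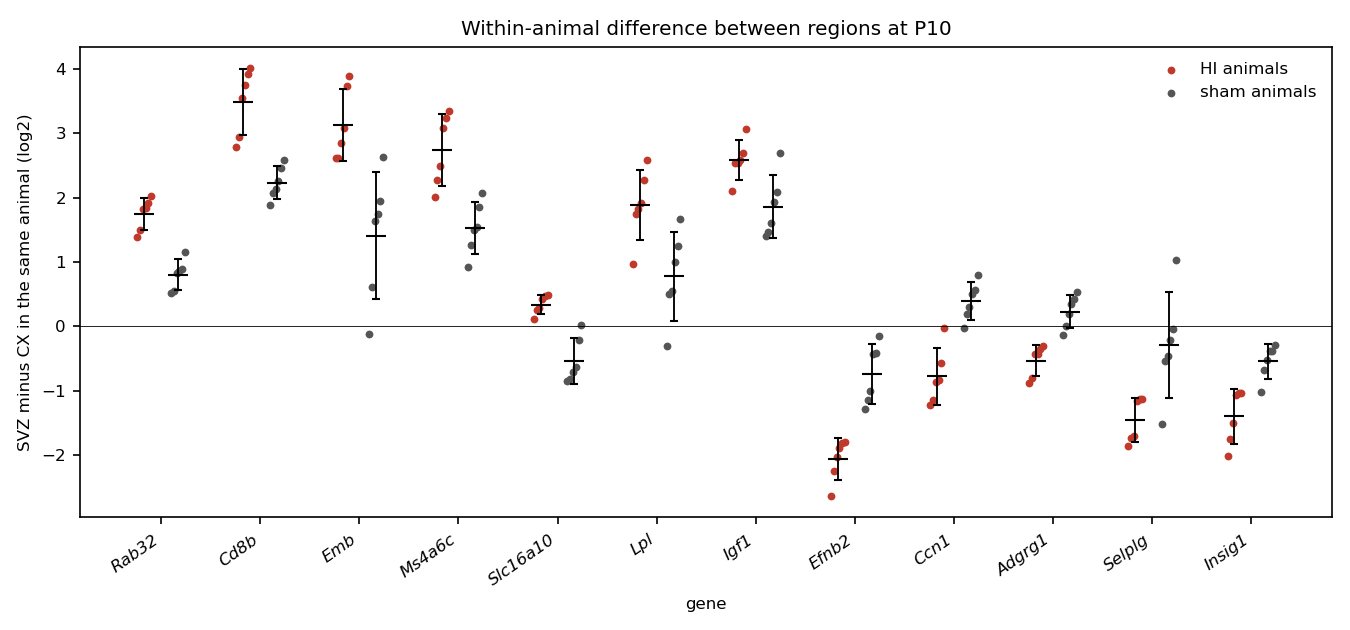
SVZ minus CX in the same animal (log2, y axis) for 12 genes, with 6 HI animals (red) left of 6 sham animals (grey) and mean ± SD as black bars. Rab32, Cd8b and Slc16a10 lie higher in all HI animals than in any sham animal, and Efnb2, Adgrg1 and Insig1 lie lower, whereas Emb, Lpl, Igf1 and Selplg overlap between the surgeries.

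The 10 named genes of smallest p with a negative interaction were Efnb2, Ccn1, Adgrg1, Hivep1, Adarb2, Ptprs, Cnn2, Med12l, Sall3 and Pcdh7, again without a pass in the block model of P10 arrays (adjusted p 0.1 to 0.159). In the SVZ 7 of the 10 fell, and in 9 of the 10 the CX difference was positive. Of these genes 3 were called in the 8-group model and 9 in the 46-array block model. In 8 of the 10, all HI animals lay below all sham animals in SVZ minus CX, against 0.27% of all genes. The set was chosen by that measure too.

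Efnb2 encodes ephrin-B2, a membrane ligand of Eph receptors that guides migrating cells and axons. It measured 5.401, 5.657 and 5.861 in SVZ HI and 6.009, 6.546 and 7.498 in SVZ sham, against 7.497, 7.651 and 8.041 in CX HI and 7.086, 7.376 and 7.645 in CX sham. Every SVZ HI array lay below every SVZ sham array, while in the CX the HI arrays lay towards the upper end of the sham arrays and overlapped them. The difference was -0.99 in the SVZ (adjusted p = 0.000722) and 0.35 in the CX (95% interval 0.01 to 0.68, adjusted p = 0.329). The interaction was -1.33 ± 0.20, with adjusted p = 0.101 in the block model of P10 arrays, 0.00903 with 8 groups and 0.00529 with the block over 46 arrays.

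The other negative genes included surface receptors and cytoskeletal genes. Adgrg1 encodes the adhesion receptor GPR56. It averaged 6.83 ± 0.307 in SVZ HI and 7.47 ± 0.355 in SVZ sham, against 7.36 ± 0.273 in CX HI and 7.25 ± 0.344 in CX sham. Its interaction of -0.76 ± 0.13 was called in the 46-array block model only (adjusted p = 0.0137, and 0.116 with 8 groups). Ccn1, a secreted matrix protein gene, had differences of -0.61 in the SVZ and 0.55 in the CX, of which neither was called. Its interaction of -1.16 ± 0.19 was called in neither of the 46-array models. Cnn2, which encodes a calponin of the actin cytoskeleton, had an interaction of -0.63 ± 0.13 and was called in both. It fell by 0.31 in the SVZ, and the CX difference of 0.31 was not called.

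**Figure D3:**
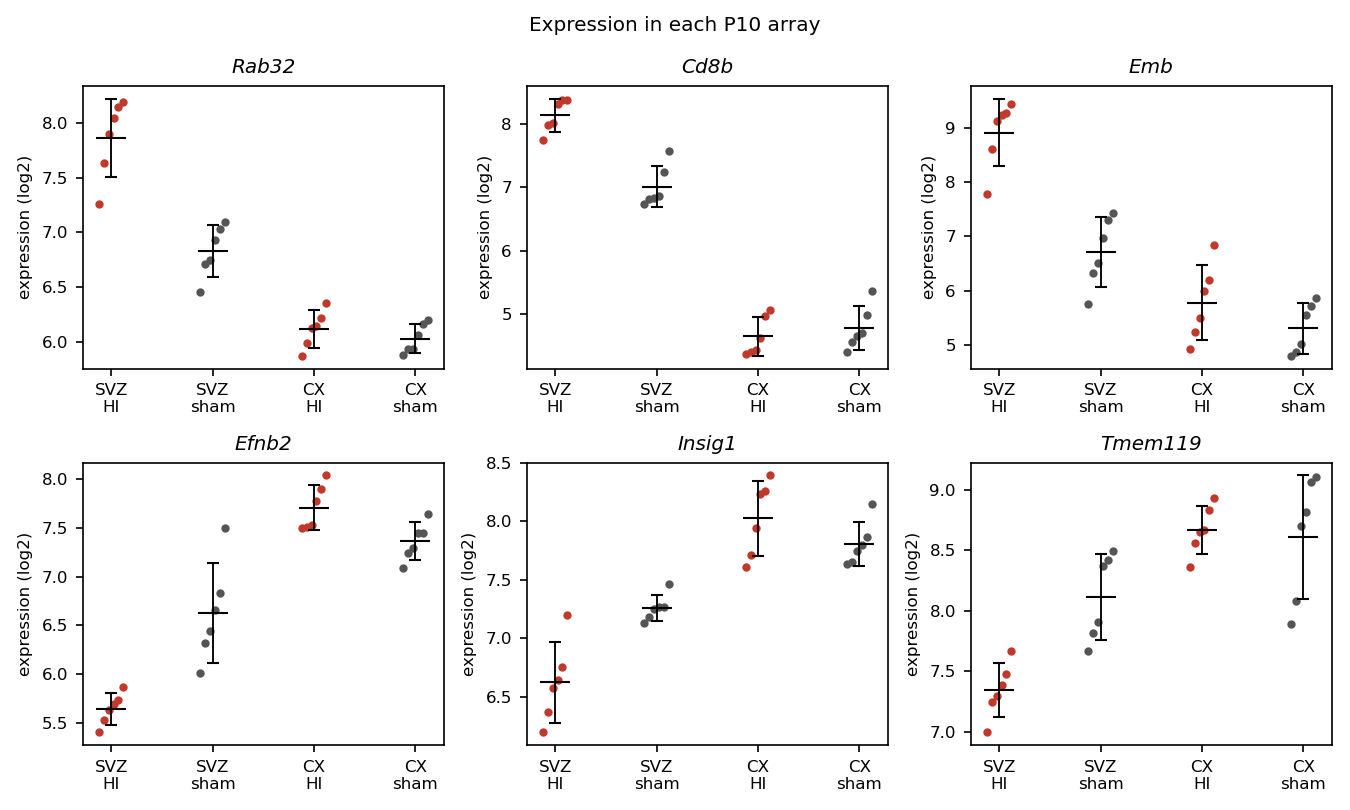
Expression (log2, y axes that do not start at 0) of 6 genes in each P10 array, with HI in red, sham in grey and mean ± SD as black bars (n = 6 per group). Rab32, Cd8b and Emb are higher in SVZ HI than in SVZ sham with little separation in the CX, and Efnb2, Insig1 and Tmem119 are lower in SVZ HI than in SVZ sham.

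Genes that the study named for the SVZ after HI at P10 were chosen on the SVZ side of this contrast, so their interaction is not independent evidence of its direction. Of 25 such genes 23 were measured, and all 23 rose in the SVZ. All 23 had a positive interaction, 20 at an unadjusted p under 0.05 and 9 called in the 8-group model. Their median interaction was 0.91, with median differences of 1.12 in the SVZ and 0.23 in the CX. The range within the set was wide. Emb, which encodes a chaperone of lactate transporters, had the largest at 1.72 ± 0.38, with 8.91 ± 0.621 in SVZ HI and 6.71 ± 0.639 in SVZ sham, against 5.78 ± 0.696 in CX HI and 5.31 ± 0.461 in CX sham. Ms4a6c, a member of a family of related membrane proteins, some of whose probes may share signal, had 1.22 ± 0.24. Lpl, the lipase that frees fatty acids from lipoproteins, had 1.11 ± 0.30.

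Igf1, a growth factor for oligodendrocyte precursors and neurons, measured 9.06, 9.62 and 9.79 in SVZ HI and 8.28, 8.52 and 8.99 in SVZ sham, against 6.68, 6.96 and 7.25 in CX HI and 6.30, 6.68 and 7.13 in CX sham. SVZ HI arrays lay above all SVZ sham arrays, and CX arrays overlapped. The interaction of Igf1 was 0.73 ± 0.20 and did not pass (adjusted p = 0.228 in the block model of P10 arrays and 0.0682 with 8 groups). Stom and Gpnmb had the smallest interactions of the set, and in both the SVZ rise stood beside a positive CX difference that was not called. Stom had 1.13 in the SVZ and 0.73 in the CX (interaction 0.40 ± 0.28), and Gpnmb, a membrane glycoprotein of phagocytes, had 1.07 in the SVZ and 0.61 in the CX (interaction 0.45 ± 0.27). The study also named 10 genes of a published consensus profile of microglia in neurodegenerative disease models. It named them as higher in SVZ than in CX microglia of these same animals. Among the 9 of these 10 genes that were measured, C3 was nearest to 0 at 0.07 ± 0.18.

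Gene groups were described by counts at an unadjusted p under 0.05, read against 5.94% positive and 5.36% negative over all genes, and by their median beside 0.03 for all genes. In the block model of P10 arrays no list had a member that passed adjustment. Examples are mostly the members of smallest p, chosen after their values were seen. Some lists share members with the genes the study named for the SVZ after HI at P10. Examples are Lpl in lipid handling, and Rab32 and Atp6v1e1 among lysosomal genes.

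Activated microglia genes leaned positive and homeostatic genes negative. Of 30 genes of microglial activation, 26 were positive, 10 at an unadjusted p under 0.05, with a median of 0.25, and 15 rose in the SVZ. Among the 10 were Emb, Mfsd1, Anxa5, Igf1, Anxa2 and Lpl, which the study had chosen on the SVZ side of this contrast. The positive lean of this list is therefore partly set by that choice and is given as a description. Lgals3, a galectin of phagocytes, had 0.57 ± 0.15. Csf1, a growth factor of macrophages, had 0.69 ± 0.21, and Anxa5, which binds phosphatidylserine, had 0.78 ± 0.17. Of 21 homeostatic genes, 18 were negative, 4 at an unadjusted p under 0.05, with a median of -0.14. Without A-3 these were 9 and -0.24, and without A-4 they were 3 and -0.08. Selplg, the ligand of P-selectin, fell by 0.72 in the SVZ and had a CX difference of 0.44. Its interaction of -1.16 ± 0.31 was called in both 46-array models. Tmem119, a microglial surface protein gene, fell in the SVZ to 7.35 ± 0.227 in SVZ HI, against 8.11 ± 0.357 in SVZ sham, and was 8.67 ± 0.201 in CX HI and 8.61 ± 0.510 in CX sham. Its interaction of -0.82 ± 0.22 was called in neither (adjusted p = 0.105 with 8 groups and 0.0599 with the block over 46 arrays).

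Cholesterol synthesis genes leaned negative and lipid handling genes positive. Of 20 genes of cholesterol synthesis and its control, 18 were negative and 11 of them at an unadjusted p under 0.05, with a median of -0.34, while 0 were positive at that level. The SVZ median was -0.22 and the CX median 0.08, and 3 genes fell in the SVZ. Insig1, the membrane protein that holds back the cholesterol-sensing transcription factor SREBP, measured 6.196, 6.608 and 7.196 in SVZ HI and 7.13, 7.257 and 7.46 in SVZ sham, against 7.61, 8.087 and 8.392 in CX HI and 7.637, 7.772 and 8.145 in CX sham. Its interaction was -0.86 ± 0.18 and was called in both 46-array models. Fdft1, squalene synthase, had -0.70 ± 0.17 and Sqle, squalene epoxidase, had -0.69 ± 0.17. Srebf2, which encodes the SREBP of this pathway, had -0.52 ± 0.15. At P20 the median of the list was 0.01. The median at P10 lay between -0.42 and -0.24 with any 1 animal left out.

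Promoters of this group are shown because its members leaned the same way. A motif known to act beside SREBP, CCAAT (or ATTGG on the other strand), occurred in the 250 bases before the start site of 13 of the 16 members found in the RefSeq promoter table (81.2%), and in 34.3% of all 27457 promoters. Each line below gives 100 bases of the gene's own strand, 5′ to 3′, on build GRCr8, for the 3 matching members with the most negative interaction, with matches in capitals. A match describes the letters only.
Insig1 (-0.86, chr4:8057913-8058012, minus strand): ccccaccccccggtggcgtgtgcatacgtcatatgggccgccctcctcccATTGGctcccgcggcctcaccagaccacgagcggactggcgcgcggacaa
Lss (-0.64, chr20:12118263-12118362, minus strand): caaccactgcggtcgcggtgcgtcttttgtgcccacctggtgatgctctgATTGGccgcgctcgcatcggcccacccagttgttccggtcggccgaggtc
Msmo1 (-0.55, chr16:29746995-29747094, plus strand): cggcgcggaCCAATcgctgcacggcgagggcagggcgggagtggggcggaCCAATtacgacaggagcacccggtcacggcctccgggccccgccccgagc

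Of 21 genes of lipid uptake, storage and efflux, 8 were positive and 1 negative at an unadjusted p under 0.05, with a median of 0.18. Fabp3, a fatty acid carrier, averaged 5.59 ± 0.220 in SVZ HI and 5.004 ± 0.116 in SVZ sham, against 4.67 ± 0.119 in CX HI and 4.75 ± 0.185 in CX sham. Its interaction was 0.67 ± 0.14 and was called in both 46-array models. Plin2, the coat protein of lipid droplets, averaged 9.25 ± 0.222 in SVZ HI and 8.31 ± 0.265 in SVZ sham, against 7.35 ± 0.162 in CX HI and 7.15 ± 0.168 in CX sham (interaction 0.74 ± 0.18). Apoc1, an apolipoprotein, had 0.71 ± 0.16 and Soat1, which esterifies cholesterol, had 0.54 ± 0.13. Vldlr, a lipoprotein receptor, was the negative one at -0.44 ± 0.13.

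Lysosomal and mitochondrial genes leaned positive by smaller amounts. Of 40 lysosome and phagocytosis genes, 5 were positive and 1 negative at an unadjusted p under 0.05, with a median of 0.08. Without A-4 the positive count was 15 and the median 0.16, and without A-3 they were 5 and 0.04. Atp6v1e1, a subunit of the proton pump that acidifies lysosomes, measured 8.24, 8.66 and 8.73 in SVZ HI and 7.34, 7.57 and 7.83 in SVZ sham, against 7.12, 7.31 and 7.39 in CX HI and 6.68, 7.08 and 7.25 in CX sham. Its interaction of 0.81 ± 0.15 was called in both 46-array models, as was that of Rragd outside the list at 0.78 ± 0.15, a GTPase that signals nutrient state from the lysosome. Of 96 genes of oxidative phosphorylation, 84 were positive, 23 of them at an unadjusted p under 0.05, against 1 negative, with a median of 0.19. Their SVZ median was 0.31 and 45 rose there, while the CX median was 0.11. Ndufc1, a subunit of complex I, had 0.53 ± 0.13, and Sdha, the catalytic subunit of complex II, had 0.33 ± 0.09, both called in the 8-group model but not in the 46-array block model (adjusted p = 0.0560 and 0.0702). Of 72 mitochondrial ribosome genes 8 were positive and 0 negative at that level (median 0.14). Cytosolic ribosome genes were nearer to the background, with 6 positive and 0 negative of 167 and a median of 0.05. These mitochondrial and ribosomal lists were drawn by symbol pattern and include loci named only as similar to a family member. All 6 positive cytosolic ones were such loci (Rpl22l2, Rpl10l1, Rpl38l3, Rpl31l1, Rps7l1 and Rpl22l3). So were Ndufb4l3, Uqcrbl1 and Atp5mc1l1 among the positive oxidative phosphorylation genes. The positive count of oxidative phosphorylation genes was 7 without A-6, 8 without A-2, 11 without C-1 or C-5, 12 without E-1 and 43 without A-4, with medians from 0.105 (without A-2) to 0.265 (without A-4). That of mitochondrial ribosome genes was 2 without A-2, 3 without C-1, C-5 or E-1, 4 without A-6 and 15 without A-4. That of cytosolic ribosome genes lay between 1 (without A-2 or E-1) and 14 (without A-4).

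Of 45 interferon-stimulated genes, 41 were positive, with 11 positive and 1 negative at an unadjusted p under 0.05 and a median of 0.22. The positive count was 22 without A-4 (median 0.30), 9 without A-3 (median 0.14) and lowest at 8 without E-1. None was called in the 8-group model. The SVZ median was 0.33 and the CX median 0.06. Rsad2, an antiviral enzyme gene, had opposite differences in the 2 regions, with 4.12, 4.35 and 5.42 in SVZ HI and 3.89, 4.16 and 4.24 in SVZ sham, against 4.01, 4.28 and 4.54 in CX HI and 4.36, 4.77 and 5.48 in CX sham. SVZ arrays overlapped between the surgeries, with 1 SVZ HI array reaching 5.42, and so did CX arrays. The Rsad2 median of each group lay below the array medians of 5.26 to 5.44. The interaction of Rsad2 was 0.93 ± 0.24, with 0.38 in the SVZ and -0.55 in the CX, neither called. Ifi44l had 0.81 ± 0.27, and Irf7, a transcription factor of the interferon response, had 0.68 ± 0.24.

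The interferon-stimulated response element is the motif shared by such promoters. Its repeat TTTCNNTTTC (GAAANNGAAA on the other strand) was found in 23 of 34 members in the promoter table (67.6%), and in 3.29% of all promoters. The 3 matching members of largest interaction are shown in the same way, 100 bases each on GRCr8.
Rsad2 (0.93, chr6:48788218-48788317, minus strand): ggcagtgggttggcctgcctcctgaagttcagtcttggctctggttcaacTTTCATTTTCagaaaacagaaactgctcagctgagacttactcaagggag
Ifi44l (0.81, chr2:243328614-243328713, plus strand): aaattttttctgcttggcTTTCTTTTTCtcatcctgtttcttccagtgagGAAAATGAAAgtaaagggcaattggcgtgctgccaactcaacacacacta
Irf7 (0.68, chr1:205800043-205800142, minus strand): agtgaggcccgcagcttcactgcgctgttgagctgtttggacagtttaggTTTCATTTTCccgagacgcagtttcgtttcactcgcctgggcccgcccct

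Immediate early genes, which respond within minutes to stimulation and also to tissue dissociation, leaned negative. Of 24 genes, 21 were negative, 12 of them at an unadjusted p under 0.05 against 0 positive, with a median of -0.35, an SVZ median of -0.26 and a CX median of 0.05. Egr3 had -0.90 ± 0.31, Klf2 -0.92 ± 0.32, Fos -0.40 ± 0.15 and Dusp1 -0.37 ± 0.11, and 4 of the list fell in the SVZ. Hspa1a, a heat shock protein gene, had -0.46 ± 0.12. None was called in the 46-array models. A part of dissociation in these differences was not tested.

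Genes of migration and axon guidance were negative in 27 of 32, with 11 negative and 2 positive at an unadjusted p under 0.05 and a median of -0.26. Plxna2, a semaphorin receptor, averaged 6.89 ± 0.0745 in SVZ HI and 7.49 ± 0.423 in SVZ sham, against 7.28 ± 0.208 in CX HI and 7.15 ± 0.171 in CX sham. Its interaction of -0.73 ± 0.18 was called in both 46-array models, as was that of Efnb2. Sema6a had -0.62 ± 0.16 and Robo1, a Slit receptor, had -0.54 ± 0.18. Cxcr4, a chemokine receptor of migrating cells, was a positive exception at 0.73 ± 0.24, with a rise of 0.89 in the SVZ. Of 33 growth factor genes, 3 were positive (Igf1, Csf1 and Spp1) and 7 negative at an unadjusted p under 0.05, with 3 negative without A-1, A-5, C-5 or E-3 and 4 without A-3 or C-1. Among the negative were Mdk, midkine, at -0.50 ± 0.13 and Pdgfb at -0.43 ± 0.15. Complement, acute cytokine, MHC class II and cell cycle genes had medians of -0.08, -0.04, -0.02 and 0.00, and at most 2 positive and 1 negative members at that level.

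Marker lists of several other cell types leaned negative as well. Of 24 neuroblast and neuron genes, 22 were negative (5 at an unadjusted p under 0.05), with a median of -0.41, an SVZ median of -0.42 and a CX median of 0.04. With A-3, the sham animal of high neuroblast signal, left out, the median was -0.18 and the unadjusted negative count 4, and with A-4 left out they were -0.58 and 14. The count was 3 without E-2 or E-3. Of 19 endothelial and pericyte genes, 17 were negative (11 at that level, against 1 positive), with a median of -0.59. The negative count was 3 without C-5 or E-1, 4 without A-1 or A-3 and 5 without A-6, and 14 without A-5 or C-2, with medians from -0.69 to -0.46 over the animals left out. Here the CX median was 0.44 and the SVZ median -0.14. Their mean level per array was 5.91 to 7.45 in SVZ HI and 5.95 to 7.37 in SVZ sham, against 7.17 to 7.93 in CX HI and 6.55 to 7.36 in CX sham. Pdgfrb, a pericyte receptor, had -0.93 ± 0.20 and the endothelial receptor gene Kdr -1.18 ± 0.49. Myelinating oligodendrocyte genes had 13 of 15 negative (7 at that level, 2 without C-1 or E-3, 3 without A-4 or A-6, and 4 without A-3, A-5 or C-2, median -0.30), and their precursors 13 of 15 (4 at that level, against 1 positive, median -0.26, or -0.09 without A-3). Efnb2, Plxna2, Ptprs and other negative genes are also expressed by vascular or neural cells, and the part of such cells in the negative interactions was not tested. Gfap, the intermediate filament gene of astrocytes, ran the other way at 0.60 ± 0.15, and astrocyte genes as a list had a median of -0.17. Among immune cells other than microglia, 11 of 15 monocyte genes were negative, with 2 positive and 2 negative at an unadjusted p under 0.05 and a median of -0.25 (-0.04 without A-3). The 1 monocyte gene called in the 8-group model was positive, namely S100a4 at 0.55 ± 0.14, which was also called in the 46-array block model. Ccr2 averaged 3.33 ± 0.184 in SVZ HI and 3.40 ± 0.328 in SVZ sham, against 4.21 ± 0.433 in CX HI and 3.89 ± 0.145 in CX sham. These levels are low, below the array medians of 5.26 to 5.44. The interaction was -0.39 ± 0.19 for Ccr2, but 0.29 ± 0.27 for Plac8 and 0.16 ± 0.17 for Tlr8. The most negative monocyte gene was Fn1 at -1.24. Of 14 border macrophage genes, 1 was positive and 1 negative at an unadjusted p under 0.05, with a median of -0.19. Their markers split, with Mrc1 at 0.75 ± 0.40 and Pf4 at 0.18 ± 0.20, but Cd163 at -0.72 ± 0.40 and Lyve1 at -0.50 ± 0.20.

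**Figure D4:**
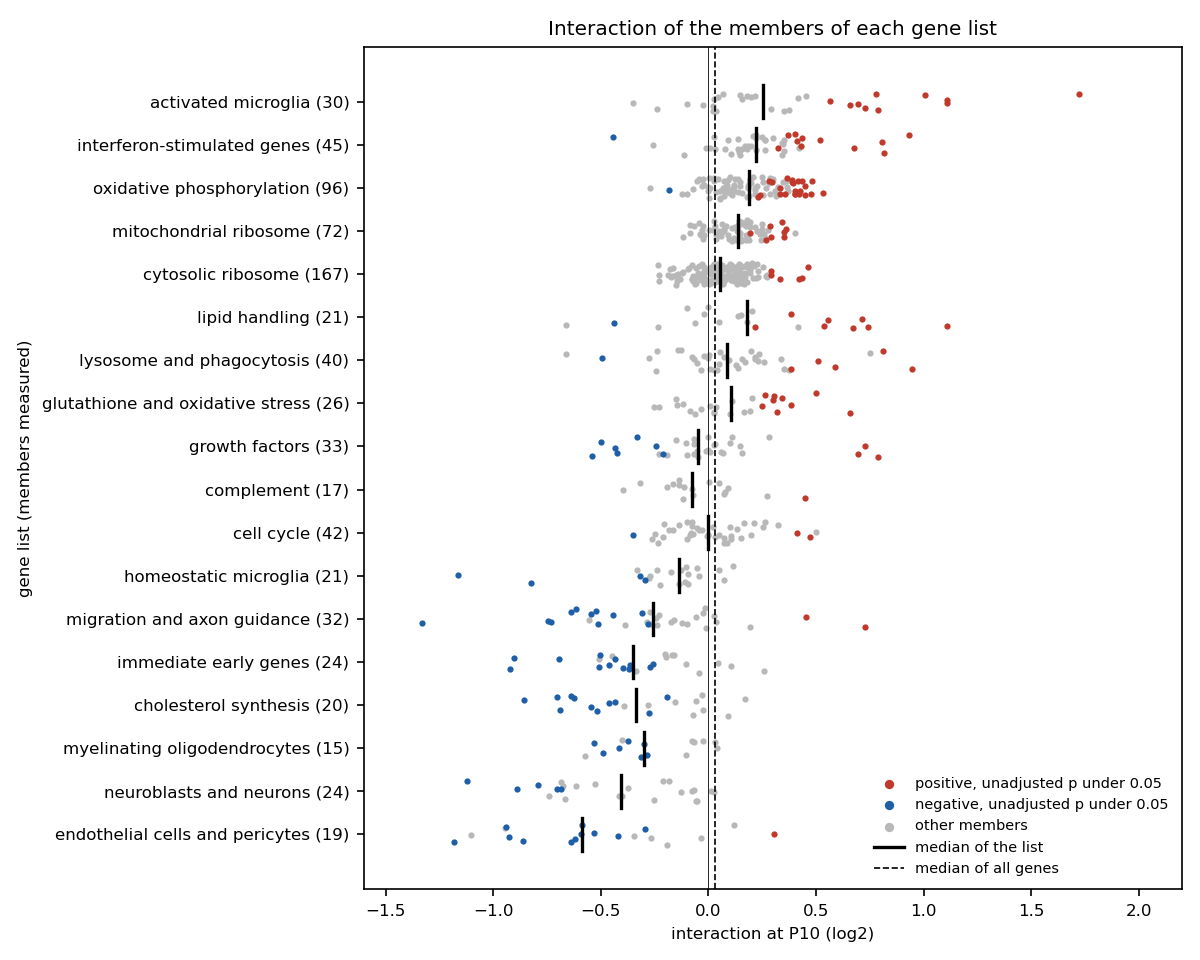
Interaction at P10 (log2, x axis) of every measured member of 18 gene lists (y axis, number of members in brackets), with the list median as a black bar and the median of all genes as a dashed line. Red and blue points are members at an unadjusted p under 0.05. The bars of activated microglia, interferon-stimulated and oxidative phosphorylation genes lie right of the dashed line, and those of cholesterol synthesis, immediate early, neuroblast and endothelial genes lie left of it.

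The interaction at P20, estimated from 22 arrays of 11 animals, was tested in the block model with the spread of all 46 arrays. It had 0 genes at an adjusted p under 0.05, 493 at an unadjusted p under 0.05 and a smallest adjusted p of 1. In the same model 108 genes were called at P10. The change of the interaction between the ages was tested in the block model over 46 arrays, and 0 genes passed, with a smallest adjusted p of 0.0926 for Slc16a10 and 1629 genes at an unadjusted p under 0.05. A weaker interaction at P20 was therefore not shown for any single gene. The P20 values of the 10 leading positive genes lay between -0.27 and 0.54, and those of the 10 leading negative genes between -0.25 and 0.14. For the interferon-stimulated list the median was 0.22 at P10 and 0.47 at P20.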

How the data were processed

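The authors normalised the arrays by robust multi-array averaging (oligo) and deposited log2 intensities of 25168 probe sets. Symbols came from the platform annotation, updated through RefSeq: 21545 probe sets had 1 symbol, 425 several and 3198 none. As in the study's methods, 1 probe set of highest variance was kept per Entrez gene, leaving 25163. No filter was applied to dim probes. The model was fitted with limma 3.58.1 in R 4.3.3 on the 24 P10 arrays, with animal as a fixed block and SVZ effects for HI and for sham animals, and p-values were adjusted by Benjamini-Hochberg. Each region's HI and sham difference came from 4 group means. Same-animal arrays deviated together (12 pairs, median residual r 0.235, 0.0344 to 0.323). Methods were checked on simulated data. Precision is limited by the number of arrays. Named were the 10 genes of smallest p in each direction with 1 symbol, the genes the study named, and list members or genes called with the 46-array spread. The gene lists and named genes were chosen with earlier results of these data known. Figures were drawn with matplotlib 3.10.9.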

Additional observations from a re-analysis of the deposited data

How the results depend on the processing

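The paired model, with a replicate block by animal, called 0 positive and 0 negative genes (0 over 1.5-fold). The test of HI against sham in each region, on 4 group means without a block, called 1665 genes in the SVZ and 3 in the CX. Without the replicate block, 4 group means called 5 positive and 1 negative (4 over 1.5-fold). The 8 group means over 46 arrays called 45 and 21 (41 over 1.5-fold), with 2521 genes in the SVZ and 335 in the CX. With the animal as a random replicate block the counts were 19 and 4 (17), and with the replicate block over all 46 arrays 72 and 36 (67). Array weights gave 12 and 3 (15), with 3296 in the SVZ and 16 in the CX. Cyclic loess gave 4 positive (4 over 1.5-fold) and 18 in the CX, genes above the median level gave 1 (1) and 9 in the CX, and median centring gave 0 in the CX. HI animals of label letter E alone gave 1 positive (1), 756 in the SVZ and 6 in the CX, and those of letter C alone gave 193 and 0. Leaving out 1 animal gave 0 to 26 positive, 0 to 17 negative and 0 to 35 over 1.5-fold, 981 to 2564 genes in the SVZ and 0 to 170 in the CX. Positive and negative counts were 26 and 2 without A-4, 23 and 17 without C-2, 2 and 13 without A-3, and 3 and 0 without E-2. In models added after the data were seen, 8 group means with letter E alone gave 21 and 6 (25), with letter C alone 0 and 0. The 66 genes of that model became 5 and 1 without E-1, 8 and 1 without C-1, 10 and 2 without A-2, 139 and 22 without A-4, 106 and 40 without C-2, and 61 and 110 without A-3. The 201 list members at an unadjusted p under 0.05 kept their sign under each of up to 29 alternatives in which they were tested. So did the leading genes, the genes called with the 46-array spread and the genes the study named, except C3. Most of these genes had been selected by their values in arrays that the alternatives largely reuse. A kept sign was therefore largely set by the selection and is given as a description. C3 was -0.0838 with the RNA integrity number as a covariate (without E-1, whose number was not given). Over all alternatives C3 was -0.0838 to 0.185 (-0.0538 without A-3, -0.00506 without C-5 and 0.185 without C-1). Median centring shifted the unadjusted split to 2232 positive and 1026 negative, and cyclic loess to 1569 and 1687. The causes were not tested. The typical standard error of an interaction was 0.113 with 6 animals per group, which limits what single genes can show.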
